A study of Mus musculus with 12 samples.

Results

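Prostaglandins are lipid signals made from arachidonic acid. The cyclooxygenases encoded by Ptgs1 and Ptgs2 turn arachidonic acid into prostaglandin H, and separate synthases then make prostaglandin E (Ptges), prostacyclin (Ptgis), prostaglandin D (Ptgds) or thromboxane (Tbxas1). Hpgd encodes the dehydrogenase that inactivates prostaglandins, and Ptger2, Ptger3 and Ptger4 encode receptors for prostaglandin E. In the colon, prostaglandin E is known for protecting the epithelium during dextran sulfate sodium (DSS) injury, and blocking cyclooxygenases worsens that injury in mice.

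The 10 genes described here are the rows with those symbols among the 21899 genes of a colon RNA-seq table, and all 10 were found. The samples were colon tissue of 6 mice with an intestinal epithelial cell-specific knockout of Pck1 (genotype CKO in the labels) and of 6 littermate control mice (WT). All 12 mice, of both genotypes, had been given 2.5% DSS for 7 days, so no value here describes an uninjured colon. Pck1 encodes the cytosolic phosphoenolpyruvate carboxykinase of gluconeogenesis, and the labels name neither the Cre driver nor the age or strain of the mice. Whole tissue was sequenced, so fewer cells of a type and less RNA per cell cannot be told apart.

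Library totals were 15348192 to 18211663 counts in the CKO mice and 15881625 to 19138507 counts in the WT mice. The Pck1 level checked the labels: it was 2.28 to 7.32 CPM in the CKO mice and 34.5 to 84.7 CPM in the WT mice, with no overlap. CPM is the TMM-scaled count of a gene relative to its library total, and TPM is the authors' length-corrected level. In edgeR's quasi-likelihood test 8 of 14393 tested genes (0.0556%) passed an adjusted p of 0.05, and 3250 (22.6%) had an unadjusted p under 0.05. CKO replicate 4 and WT replicate 4 stood nearest to the other genotype in several of the results below. Calls that changed without them are given beside those results. Leaving out such mice tends to lower p by itself, so calls made without them are descriptions only.

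None of the 9 tested members passed the adjusted threshold in edgeR: 0 were called, against 0.0556% of all tested genes. At an unadjusted p under 0.05 there were 4 members higher in the CKO mice (Ptges, Ptgs2, Ptger2 and Ptgs1) against 13.1% of all tested genes, and 1 lower (Ptger4) against 9.48%. DESeq2's Wald test called Ptgs2 and Ptges, where it called 9.88% of its genes. The remaining member, Ptgds, had too few counts to be tested.

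The promoters of Ptgs2 and Ptges are shown because these genes had the smallest p of the 9 tested members. Each sequence holds the 250 bases before the annotated start in RefSeq on GRCm38.p6, read 5′ to 3′ on the strand of the gene. The Ptgs2 window is chr1:150099781-150100030 on the plus strand, and the Ptges window is chr2:30903298-30903547 on the minus strand. Capitals mark the matches to the motifs searched.
Ptgs2: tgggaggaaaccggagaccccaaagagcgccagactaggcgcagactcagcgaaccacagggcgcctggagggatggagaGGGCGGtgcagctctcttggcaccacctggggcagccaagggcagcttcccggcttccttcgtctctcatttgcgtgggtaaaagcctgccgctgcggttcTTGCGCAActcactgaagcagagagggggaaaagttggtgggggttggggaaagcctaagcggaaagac
Ptges: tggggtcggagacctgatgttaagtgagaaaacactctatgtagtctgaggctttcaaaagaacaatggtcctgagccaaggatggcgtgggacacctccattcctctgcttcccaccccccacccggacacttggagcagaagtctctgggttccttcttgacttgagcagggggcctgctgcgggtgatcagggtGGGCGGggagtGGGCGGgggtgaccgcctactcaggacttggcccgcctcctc

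The motifs were searched on both strands. The C/EBP motif TTGCNNAA was found in the Ptgs2 window, 69 to 62 bases before the annotated start, and 9.57% of 32817 windows of the same length held it. The GC box GGGCGG was found once in the Ptgs2 window and at 2 places in the Ptges window, 53 to 48 and 42 to 37 bases before the start. It was present in 32.7% of all windows. The core CGTCA of the cyclic AMP response element (17.7% of windows) and the whole element TGACGTCA (1.55%) had no match in either window. The same held for the E-box CACGTG (6.02%), the AP-1 motif TGANTCA (6.75%), the TATA motif TATAAA (12.4%) and the NF-kB motif (7.25%). The core lies within the whole element, and a match is a run of letters and not a measured binding site. Bases after the annotated start, and those more than 250 bases before it, were not searched. A motif without a match here may therefore lie outside the windows. Of the 10 members, 9 had an entry in the promoter table.

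Ptgs2, the cyclooxygenase that injury and cytokines induce, had the widest range of the 9 tested members over the 12 libraries, as the ratio of the highest to the lowest count. Its level in CKO replicates 1 to 6 was 326, 86.3, 141.9, 32.4, 185.9 and 67.4 CPM. In WT replicates 1 to 6 it was 10.9, 13.7, 26.2, 74.1, 16.5 and 53.6 CPM. Of the CKO mice 4 lay above every WT mouse, and WT replicates 4 and 6 lay above CKO replicate 4. The mean was 140.0 ± 106.4 CPM in the CKO mice and 32.5 ± 25.7 CPM in the WT mice (SD, n = 6 each). The log2 fold change was 2.11 ± 0.59 (SE; CKO minus WT), with an edgeR adjusted p of 0.0685 that did not pass. The call depended on the mice included and on the test. The adjusted p in edgeR was 0.0292 without CKO replicate 4, 0.0290 without WT replicate 4 and 0.00926 without both, where the log2 fold change was 2.74. With any other single mouse left out the edgeR adjusted p was 0.0583 to 0.152 and did not pass. In DESeq2 with all 12 mice the adjusted p was 0.0141.

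Ptges, the microsomal prostaglandin E synthase that often works together with Ptgs2, was separated more evenly. CKO replicates 1 to 6 had 62.4, 152 (replicate 2), 78.1, 31.8, 45.0 and 43.8 CPM. WT replicates 1 to 6 had 14.0, 11.4, 13.3, 45.4, 10.2 and 22.1 CPM. WT replicate 4 was the one WT mouse inside the CKO range, and the other 5 WT mice lay below every CKO mouse. The mean was 68.8 ± 43.8 CPM in the CKO mice and 19.4 ± 13.4 CPM in the WT mice (SD, n = 6 each). Its log2 fold change was 1.83 ± 0.44 (SE), with an edgeR adjusted p of 0.0569, just outside the threshold. It was the member with the smallest p, at rank 262 of all tested genes. Without CKO replicate 4 the adjusted p in edgeR was 0.0272, and without WT replicate 4 it was 0.0146. Without both it was 0.00382, where the log2 fold change was 2.43. With any other single mouse left out the edgeR adjusted p was 0.0523 to 0.138 and did not pass. DESeq2 gave an adjusted p of 0.00102, and limma-trend on log2(TPM + 1), which called 2.8% of all tested genes, gave 0.0426. In the authors' deposited table, whose test the labels do not name, Ptgs2 had an adjusted p of 0.0166 and Ptges of 0.00121. There 1391 of all 21899 genes (6.35%) were under 0.05. That share includes genes without counts, as 18161 had at least 1 count, so its base differs from that of the shares above.

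Ptgs1, the cyclooxygenase that most tissues express without induction, differed less between the genotypes. CKO replicates had 28.8, 58.5, 37.7, 29.2, 26.2 and 23.6 CPM, in the order of their numbers. WT replicates had 24.8, 17.1, 22.5, 26.6, 20.1 and 31.9 CPM. The groups overlapped, and CKO replicate 2 was the highest library. The log2 fold change was 0.51 ± 0.22 (SE), with an unadjusted edgeR p of 0.0340 and an adjusted p of 0.182. Without CKO replicate 2 it was 0.29, with an adjusted p of 0.344.

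**Figure D1:**
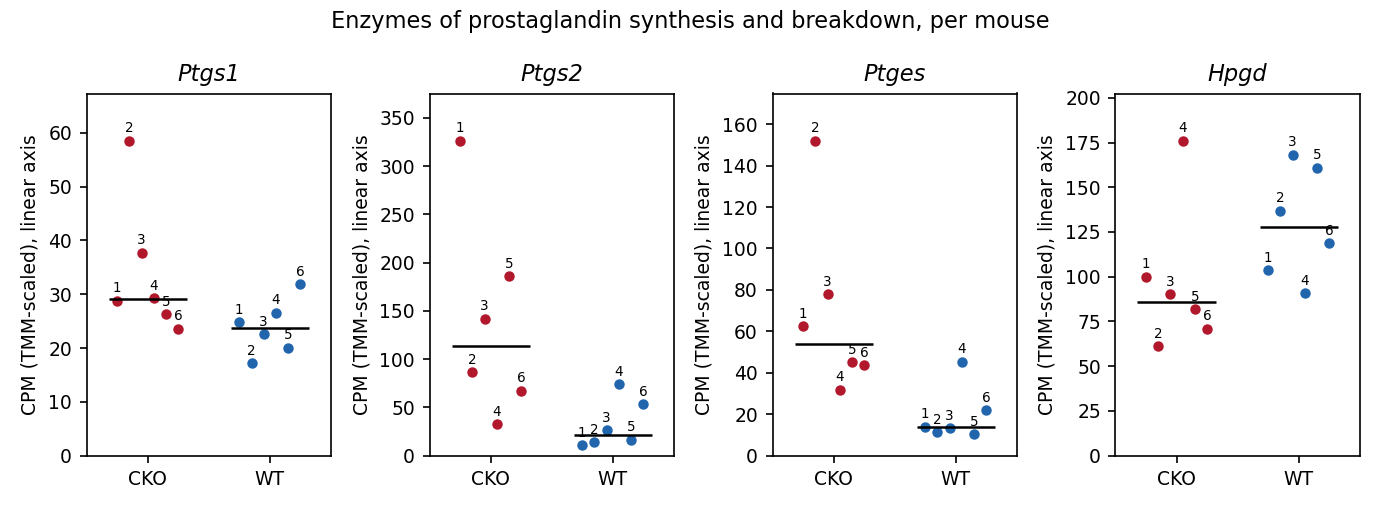
Level of Ptgs1, Ptgs2, Ptges and Hpgd in each mouse, as TMM-scaled CPM on linear axes that start at 0; numbers beside points are replicate numbers and bars are group medians. All 6 CKO mice lie above the WT median for Ptgs2 and Ptges, while CKO replicate 4 is the lowest CKO mouse for both and the highest mouse for Hpgd.

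The synthases of the other prostanoids showed smaller differences. Ptgis, the prostacyclin synthase, had 4.28 to 18.1 CPM in the CKO mice (median 6.80) and 5.01 to 11.02 CPM in the WT mice (median 6.15). The highest value was again that of CKO replicate 2. The log2 fold change was 0.20, with a 95% interval of -0.50 to 0.89 and an edgeR adjusted p of 0.768. Without that mouse it was -0.21, so its direction depended on 1 library. Tbxas1, the thromboxane synthase, had 3.17 to 10.6 CPM in the CKO mice (median 4.63) and 3.497 to 6.27 CPM in the WT mice (median 4.26), and CKO replicate 2 was the highest here too. Its log2 fold change was 0.21, with an interval of -0.39 to 0.80 and an edgeR adjusted p of 0.705. Without CKO replicate 2 the direction turned here as well, to -0.10.

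Ptgds, the lipocalin-type prostaglandin D synthase, was close to absent from the libraries. Its highest count in any library was 8, in CKO replicate 3. In 5 of the 12 libraries it had no counts, namely CKO replicates 4 and 5 and WT replicates 2, 5 and 6. It did not pass the low-count filter, and no fold change is given. The haematopoietic prostaglandin D synthase Hpgds was measured, at 5.23 ± 1.96 CPM in the CKO mice and 8.20 ± 3.09 CPM in the WT mice (SD, n = 6 each; edgeR adjusted p = 0.252).

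Hpgd, which inactivates prostaglandins and is expressed by the colonic epithelium, was the most abundant member per length in both genotypes. CKO replicates 1 to 6 had 100.1, 61.4, 90.4, 176, 81.8 and 70.9 CPM. WT replicates 1 to 6 had 103.5, 137, 168.3, 90.8, 160.9 and 118.8 CPM. CKO replicate 4 held the highest level of all 12 mice and WT replicate 4 the lowest of the WT mice, whereas 4 CKO mice lay below every WT mouse. The log2 fold change was -0.42 ± 0.24 (SE), with an edgeR adjusted p of 0.313. Without CKO replicate 4 it was -0.68 with an edgeR adjusted p of 0.0372, without WT replicate 4 it was -0.51 with an adjusted p of 0.217, and without both replicates numbered 4 it was -0.77 with an adjusted p of 0.0147. With any other single mouse left out the edgeR adjusted p of Hpgd was 0.308 to 0.517. The share of all tested genes called was 8.8% without CKO replicate 4, 6.96% without WT replicate 4 and 13.3% without both.

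The receptor genes for prostaglandin E did not move as one. Ptger2 and Ptger4 encode receptors that raise cyclic AMP, and Ptger3 encodes one that mostly lowers it. Ptger2 had 4.24, 7.66, 5.67, 3.21, 5.73 and 4.88 CPM in CKO replicates 1 to 6, against 3.08, 2.003, 2.12, 3.69, 1.10 and 5.07 CPM in WT replicates 1 to 6. All 6 CKO mice lay above the WT median, and WT replicates 4 and 6 lay inside the CKO range. The log2 fold change of Ptger2 was 0.88 ± 0.32 (SE), with an unadjusted edgeR p of 0.0165 and an adjusted p of 0.128. Without both replicates numbered 4 it was 1.08, with an edgeR adjusted p of 0.0620 that did not pass either. Counts of this gene were low, between 18 and 134 per library.

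Ptger4 was the receptor gene with the highest level per length. It had 33.2, 25.8, 21.4, 33.2, 30.8 and 29.7 CPM in CKO replicates 1 to 6, against 39.9, 43.1, 29.6, 30.5, 49.2 and 39.6 CPM in WT replicates 1 to 6. All 6 CKO mice lay below the WT median, and WT replicates 3 and 4 were the WT mice inside the CKO range. Its log2 fold change was -0.41 ± 0.14 (SE), with an unadjusted edgeR p of 0.0126 and an adjusted p of 0.113. Without both replicates numbered 4 the edgeR adjusted p was 0.0461. With only 1 library left out it was 0.0656 to 0.230 and did not pass. The annotation places exons of Ttc33 and of the predicted gene Gm15937 on the opposite strand across part of Ptger4. Ttc33 shares 82 and Gm15937 shares 1015 of the 6648 exon bases of Ptger4. Use of strand in counting is not given in the sources used here, so reads within those shared bases cannot be told apart. Other annotated genes likewise share exon bases on the opposite strand with Ptgs1, Ptgis, Tbxas1 and Ptger2.

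Ptger3 did not separate the genotypes. Its range was 3.395 to 7.88 CPM in the CKO mice (median 4.99) and 3.12 to 9.32 CPM in the WT mice (median 4.10). The log2 fold change was 0.03, with a 95% interval of -0.61 to 0.67 and an edgeR adjusted p of 0.968. That interval leaves room for a difference in either direction.

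**Figure D2:**
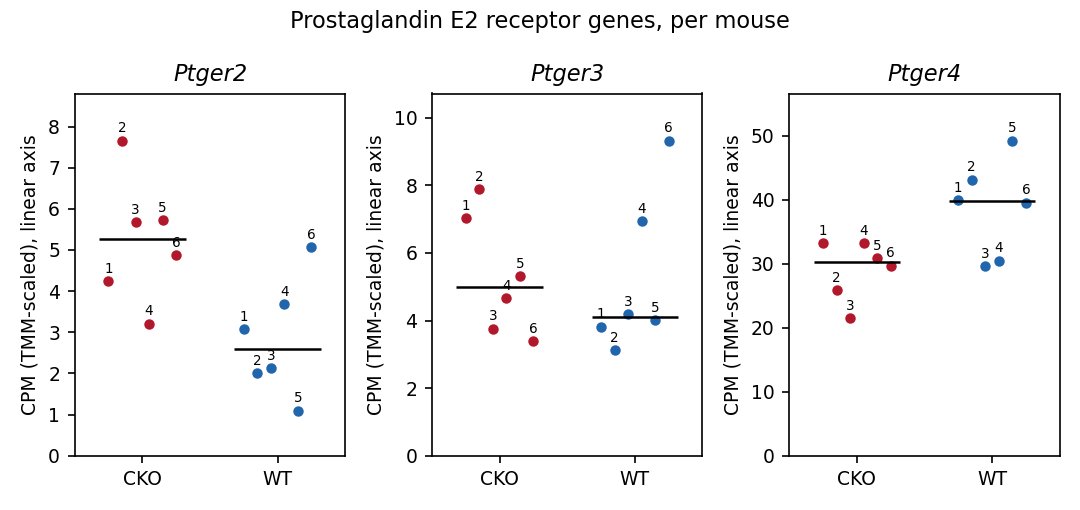
Level of the prostaglandin E receptor genes Ptger2, Ptger3 and Ptger4 in each mouse, as TMM-scaled CPM on linear axes that start at 0; numbers are replicate numbers and bars are group medians. Every CKO mouse lies above the WT median for Ptger2 and below it for Ptger4, with overlap between the genotypes for all 3 genes.

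**Figure D3:**
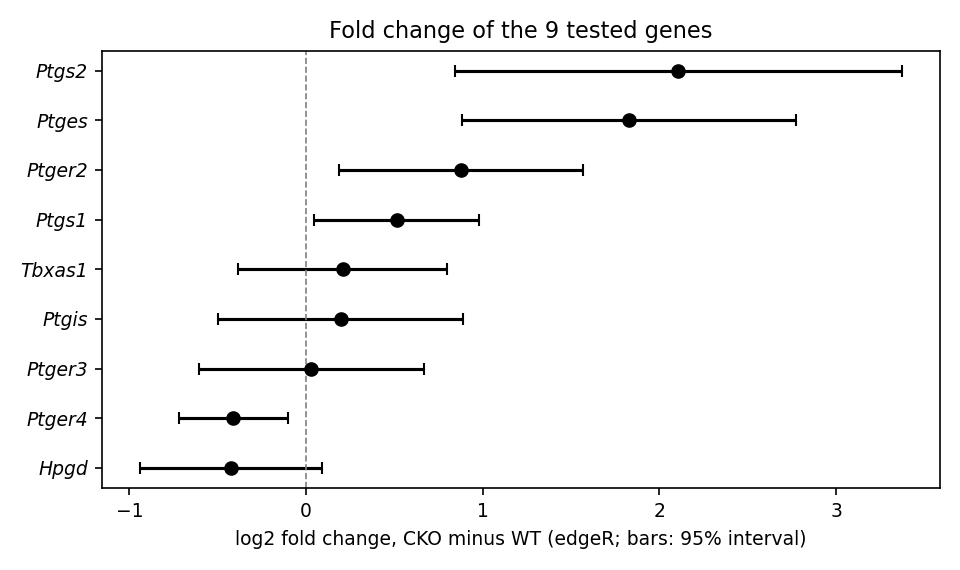
Fold change of the 9 tested genes on the log2 scale (CKO minus WT, edgeR, 6 mice each), with unadjusted 95% intervals. The intervals of Ptgs2, Ptges, Ptger2 and Ptgs1 lie above 0 and that of Ptger4 below 0, while no gene passes the adjusted threshold.

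No member separated the genotypes completely, where 1.52% of all tested genes did. Of the 9 tested members 7 had a log2 fold change above 0, with a median of 0.21, against 45.1% and a median of -0.03 over all tested genes.

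The order of the members by TPM, which corrects for gene length, differed between the genotypes in its upper part. In the CKO mice the order was Hpgd (107.7 ± 43.7 TPM, SD, n = 6), Ptgs2 (59.0 ± 44.6), Ptges (35.7 ± 23.6), Ptgs1 (22.4 ± 8.83) and Ptger4 (16.8 ± 3.09). In the WT mice it was Hpgd (139 ± 30.8 TPM, SD, n = 6), Ptger4 (21.2 ± 3.61), Ptgs1 (15.1 ± 3.398), Ptgs2 (13.3 ± 10.8) and Ptges (9.73 ± 7.01). Neighbours in the middle of each order changed places between mice: Ptgs2 exceeded Ptges in 4 of 6 CKO mice, Ptgs1 exceeded Ptger4 in 3 of 6 CKO mice, and Ptgs1 exceeded Ptgs2 in 4 of 6 WT mice. The lower part of the order was Ptgis, Tbxas1, Ptger3, Ptger2 and Ptgds in the CKO mice, at means of 7.91, 5.15, 4.56, 2.69 and 0.277 TPM. In the WT mice Ptger3 and Tbxas1 changed places, with means of 6.59 TPM for Ptgis, 4.32 for Ptger3, 4.26 for Tbxas1, 1.40 for Ptger2 and 0.0967 for Ptgds. Ptger3 exceeded Tbxas1 in 3 of 6 WT mice, so these neighbours could not be ordered there.

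The ratio of the inducible to the constitutive cyclooxygenase within a mouse describes which of them supplied more transcripts. Ptgs2 over Ptgs1, as a ratio of TPM, was 7.29, 0.949, 2.42, 0.713, 4.56 and 1.84 in CKO replicates 1 to 6, against 0.281, 0.514, 0.749, 1.80, 0.529 and 1.08 in WT replicates 1 to 6. Ptgs2 exceeded Ptgs1 in 4 of the CKO mice and in 2 of the WT mice, WT replicates 4 and 6. CKO replicates 2 and 4 lay below 1, the first with the highest Ptgs1 level and the second with the lowest Ptgs2 level of its genotype. Ptgs2 over Hpgd, a synthesis gene over the breakdown gene, was 1.23, 0.531, 0.593, 0.0695, 0.859 and 0.359 in CKO replicates 1 to 6, against 0.0396, 0.0378, 0.0589, 0.308, 0.0388 and 0.171 in WT replicates 1 to 6. On that ratio 5 CKO mice lay above every WT mouse, and CKO replicate 4 lay among the WT mice. WT replicates 4 and 6 were the WT mice above CKO replicate 4. These ratios are given as descriptions, without a test.

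**Figure D4:**
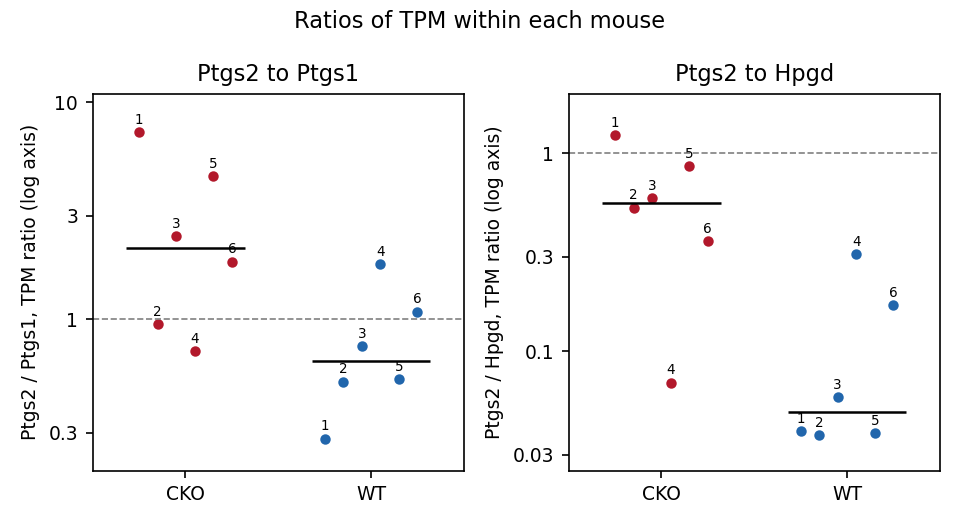
Ratio of TPM values within each mouse, Ptgs2 over Ptgs1 and Ptgs2 over Hpgd, on log axes with a dashed line at 1; numbers are replicate numbers and bars are group medians. The median of Ptgs2 over Hpgd was 0.562 in the CKO mice and 0.0492 in the WT mice. On that ratio CKO replicate 4 lies apart from the other CKO mice, while on Ptgs2 over Ptgs1 it lies near CKO replicate 2.

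Marker levels of other cell types differed between the same mice. A list of 10 neutrophil markers summed to 281 to 1375 CPM in the CKO mice and 141 to 646 CPM in the WT mice. None of these markers was at 0 in all 12 libraries. All 10 neutrophil markers had a log2 fold change above 0, and 8 had an unadjusted p under 0.05. The monocyte and macrophage list summed to 1292 to 2421 CPM against 904 to 1614 CPM, the fibroblast list to 4543 to 10630 CPM against 2811 to 5530 CPM, and the endothelial list to 386 to 801 CPM against 267 to 419 CPM (CKO against WT). Unadjusted p values under 0.05, all in the higher direction, were found for 7 of 12, 8 of 10 and 6 of 8 genes of these lists. The epithelial list, from the cells that carry the knockout, summed to 9768 to 11620 CPM in the CKO mice and 10380 to 14040 CPM in the WT mice, with 4 of 10 genes lower at an unadjusted p under 0.05. Over all tested genes 13.1% were higher and 9.48% lower at an unadjusted p under 0.05. A log2 fold change above 0 was found for 45.1% of them. None of the listed markers passed the adjusted threshold in edgeR. The part of these cell types in the values of the members was not tested.

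Within each genotype, Ptges followed the neutrophil markers from mouse to mouse, over 14 relations examined in all. In the 6 CKO mice Pearson's r between log2 levels was 0.89 (exact permutation p = 0.00833, adjusted 0.0292) and Spearman's rho 0.89 (exact permutation p = 0.0333, adjusted 0.117). In the 6 WT mice r was 0.997 (exact permutation p = 0.00139, the smallest that the arrangements can give, adjusted 0.00972) and rho was 1 (exact permutation p = 0.00278, adjusted 0.0194). Without the 2 mice farthest from the median of the marker level r was 0.89 in the CKO mice and 0.97 in the WT mice. Ptges also followed the fibroblast markers in the CKO mice (r = 0.98, exact permutation p = 0.00278, adjusted 0.0130; rho = 0.94, exact permutation p = 0.0167, adjusted 0.0778) and less closely in the WT mice (r = 0.85, exact permutation p = 0.0403, adjusted 0.0705; rho = 0.77, exact permutation p = 0.103, adjusted 0.240). Without the 2 farthest mice these r values were 0.99 and 0.60. The neutrophil and fibroblast lists were both highest in CKO replicates 1, 2 and 3, so the relations are not separate.

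For Ptgs2 the relation with the neutrophil markers passed by Pearson's r in the WT mice only. Its difference from the relation of Ptges was not tested. In the CKO mice r with the neutrophil markers was 0.37 (exact permutation p = 0.457, adjusted 0.640; rho = 0.37, exact permutation p = 0.497, adjusted 0.536), and 0.75 without the 2 farthest mice. In the WT mice r was 0.84 (exact permutation p = 0.0208, adjusted 0.0486) and rho was 0.60 (exact permutation p = 0.242, adjusted 0.376), and without the 2 farthest mice r was -0.26, so this relation rested on them. CKO replicate 5 had the second-highest Ptgs2 level, at 185.9 CPM, with 306 CPM of neutrophil markers, while CKO replicate 2 had 86.3 CPM of Ptgs2 with 1303 CPM of markers. Ptgs2 and Ptges were related at r = 0.30 in the CKO mice (exact permutation p = 0.582, adjusted 0.741; rho = 0.49, p = 0.356, adjusted 0.453). In the WT mice r between them was 0.87 (exact permutation p = 0.0194, adjusted 0.0486; rho = 0.60, p = 0.242, adjusted 0.376). Without the 2 farthest mice r between them was -0.20 in the CKO mice and -0.03 in the WT mice.

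**Figure D5:**
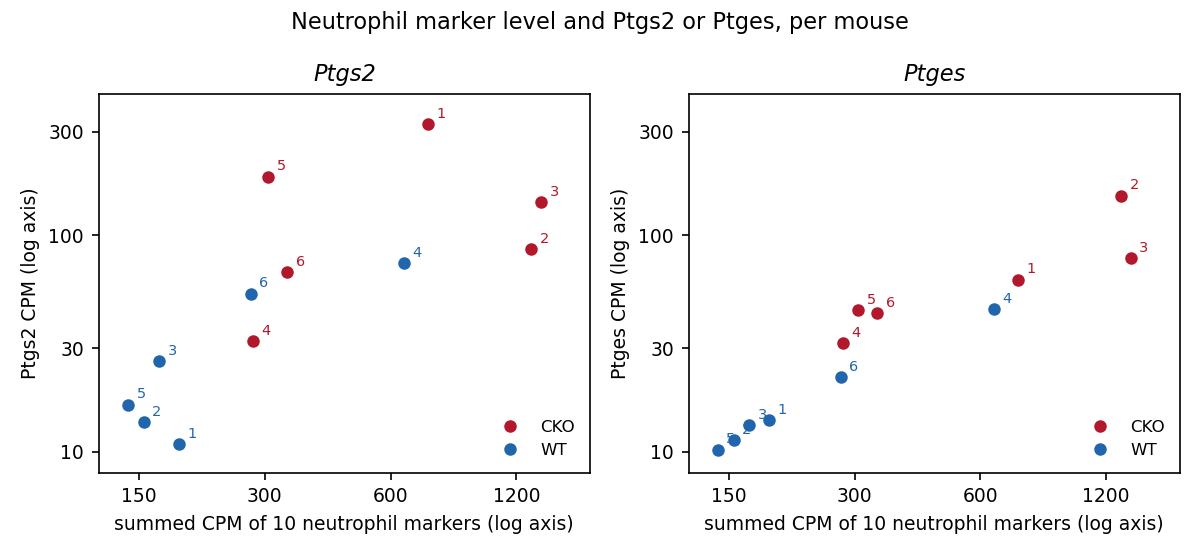
Ptgs2 and Ptges CPM of each mouse against the summed CPM of 10 neutrophil markers, on log axes, with CKO mice in red, WT mice in blue and replicate numbers beside the points. Ptges is higher at higher marker levels in both genotypes. CKO replicates 4, 5 and 6, at 281, 306 and 340 CPM of markers, have 31.8, 45.0 and 43.8 CPM of Ptges. WT replicate 6 has 22.1 CPM of Ptges at 278 CPM of markers, and WT replicate 4 has 45.4 CPM at 646 CPM. The part of neutrophils in the Ptges level was not tested.

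Other relations concerned the less abundant synthases and Hpgd. Tbxas1, which macrophages and platelets express, followed the monocyte and macrophage markers in the WT mice (r = 0.95, exact permutation p = 0.00139, adjusted 0.00972; rho = 1, p = 0.00278, adjusted 0.0194; r = 0.98 without the 2 farthest mice). In the CKO mice that relation did not pass (r = 0.70, exact permutation p = 0.119, adjusted 0.186; rho = 0.60, p = 0.242, adjusted 0.376; r = -0.32 without the 2 farthest mice). Ptgis was related to the fibroblast markers at r = 0.90 in the CKO mice (exact permutation p = 0.0389, adjusted 0.0705; rho = 0.77, p = 0.103, adjusted 0.240; r = 0.89 without the 2 farthest mice). In the WT mice it was related to them at r = 0.14 (exact permutation p = 0.787, adjusted 0.848; rho = 0.43, p = 0.419, adjusted 0.489; r = 0.06 without the 2 farthest mice). Hpgd showed no relation with the epithelial markers that passed. In the CKO mice r was 0.21 (exact permutation p = 0.671, adjusted 0.783; rho = 0.54, p = 0.297, adjusted 0.416; r = -0.04 without the 2 farthest mice). In the WT mice r was 0.03 (exact permutation p = 0.943, adjusted 0.943; rho = 0.14, p = 0.803, adjusted 0.803; r = 0.61 without the 2 farthest mice).

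The genes whose levels were most like those of 3 members were found by the correlation of log2 CPM centred within each genotype, over 12 libraries, and are given without a p. For Ptgs2 these were Ereg (r = 0.94), Rdh10 (0.93), Epgn (0.93), Inhba (0.92) and Fgf7 (0.92). Ereg and Epgn encode ligands of the EGF receptor, Rdh10 a retinol dehydrogenase, Inhba the activin A subunit and Fgf7 a growth factor for epithelium. Ptgs1 was most like Cadm3, Vwf, Spns2, Ak1 and Pcsk5, with r between 0.95 and 0.96, of which Vwf encodes von Willebrand factor of endothelium. Hpgd was most like Txndc15 (r = 0.96), the nuclear receptor gene Pparg (0.92), Nbr1 (0.92), Ang (0.91) and the tight junction gene Ocln (0.91). Among the members themselves the highest value was 0.80, between Ptgs1 and Tbxas1, and the lowest was -0.72, between Hpgd and Ptger2. CKO replicate 2 was the highest library for both Ptgs1 and Tbxas1. The correlations in this paragraph were not repeated without any mouse.

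The rest of the pathway was read from 6 lists with 52 genes, of which 51 were in the table and 46 were tested. In edgeR 0 of the 46 passed the adjusted threshold. At an unadjusted p under 0.05, 10 were higher and 7 lower, where 13.1% of all tested genes were higher and 9.48% lower; the counts of the single lists below are small and are to be read beside the same shares.

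Among 11 tested genes that release arachidonic acid, 1 was higher and 3 lower at an unadjusted p under 0.05, and the median was -0.17 on the log2 scale. The cytosolic phospholipase Pla2g4a, the main supplier of arachidonic acid to the cyclooxygenases, was 86.8 ± 5.85 CPM in the CKO mice and 90.2 ± 9.76 CPM in the WT mice (SD, n = 6 each; log2 fold change -0.05, edgeR adjusted p = 0.752). The secreted phospholipase Pla2g3 had the smallest p of all pathway genes, with 2.42 ± 0.926 CPM in the CKO mice and 8.25 ± 3.35 CPM in the WT mice. Its log2 fold change was -1.76 ± 0.33 (SE), with an edgeR adjusted p of 0.0512. The secreted phospholipases Pla2g10 (log2 fold change -0.49 ± 0.16, SE) and Pla2g2f (-0.54 ± 0.21) were the other lower genes. The calcium-independent phospholipase Pla2g6 (0.42 ± 0.12) was the higher one. It had 7.54 to 10.97 CPM in the CKO mice and 5.85 to 7.40 CPM in the WT mice, with an edgeR adjusted p of 0.0707. Its groups did not overlap, which held for 1.52% of all tested genes.

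Of 7 other synthases and reductases, 2 were lower at an unadjusted p under 0.05: the carbonyl reductase Cbr1 (-0.54 ± 0.20, log2 fold change and SE) and the aldo-keto reductase Akr1b3 (-0.28 ± 0.10). The cytosolic and membrane-associated prostaglandin E synthases Ptges3 and Ptges2, which are not induced like Ptges, stood at 0.21 ± 0.14 and -0.27 ± 0.14 (edgeR adjusted p = 0.394 and 0.283). Among 4 tested receptor genes outside the members 2 were higher, the prostacyclin receptor gene Ptgir (0.83 ± 0.29) and the prostaglandin F receptor gene Ptgfr (0.70 ± 0.29). The thromboxane receptor gene Tbxa2r stood at -0.52 ± 0.29 and Ptger1 at 0.03 ± 0.25. The receptors for prostaglandin D, Ptgdr and Ptgdr2, had too few counts to be tested. Of 5 transport and breakdown genes the uptake transporter Slco2a1 (0.26 ± 0.11) was higher and the prostaglandin reductase Ptgr2 (-0.30 ± 0.09) lower at an unadjusted p under 0.05.

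Genes induced by cyclic AMP, the messenger of the Ptger2 and Ptger4 receptors, had log2 fold changes above 0 in 9 of 9 cases, with a median of 0.50, where 45.1% of all tested genes were above 0. An unadjusted p under 0.05 was found for 3, against 13.1% of all tested genes in that direction: Pde4b (1.17 ± 0.32, log2 fold change and SE), a cyclic AMP phosphodiesterase, Crem (0.83 ± 0.21), a repressor of cyclic AMP responses, and Nr4a2 (0.89 ± 0.33). Other signals induce these genes too, and none passed over all genes (edgeR adjusted p = 0.0659, 0.0609 and 0.132). Log2 fold changes above 0 were also found for 10 of 10 neutrophil and 10 of 10 fibroblast markers, and for 2 of 10 epithelial markers. The neighbouring lipoxygenase branch, which makes leukotrienes from the same arachidonic acid, had 3 of 10 tested genes higher and 1 lower at an unadjusted p under 0.05. The leukotriene B receptor genes Ltb4r1 (1.68 ± 0.44) and Ltb4r2 (0.79 ± 0.22) and Alox5ap (1.33 ± 0.40), the helper protein of 5-lipoxygenase, were higher, and Lta4h (-0.22 ± 0.09), the leukotriene A hydrolase, was lower. The part of neutrophils, whose marker levels are given above, in these values was not tested.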

How the data were processed

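Per the labels' protocols, colon RNA was isolated by Trizol, and the SMARTER mRNA-Seq kit served for the libraries. Per the file headers, the authors deposited 1 table with raw read counts per gene and library, TPM per library, mean TPM per group, a log2 fold change and p-values whose test is not named. The submitters' processing notes list GRCm38, mm10 and mm39 without roles, with the aligner and counter not given in the sources used here, so coordinates are printed only for the RefSeq promoter windows, on RefSeq's own build. The table held 0 sample columns from outside the series.

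The test ran in edgeR 4.0.16 under R 4.3.3: filterByExpr (minimum count 10, minimum total 15), TMM scaling, and the quasi-likelihood test of CKO minus WT over 12 libraries without covariates, adjusted by Benjamini-Hochberg over 14393 genes at 0.05. The SE was computed as the size of the fold change over the square root of F, and the 95% interval from the SE and the test's degrees of freedom. DESeq2 1.42.0 and limma 3.58.1 served as alternatives. Log2 CPM used a prior count of 2. Correlations used exact permutation over the 6 mice of a group, two-sided, adjusted over 14 relations. The procedure was tested on simulated data.

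The members and gene lists were chosen with earlier results of these data known. Named were the members, Pck1, genes of the 6 pathway lists, and the 5 genes most like Ptgs1, Ptgs2 and Hpgd. The relations with marker levels were not in the initial plan. The result of 1 cell type marker list is not reported here. Of 52 pathway genes 51 matched, 1 of them (Ptgr3) by gene ID. Counting error follows from totals of 15348192 to 19138507 per library, and replicates are separate mice as the labels number them.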

Additional observations from a re-analysis of the deposited data

Results flagged for a closer look

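Among 110 sets of 6 mice (9 members and 46 pathway genes in each genotype), 5 held a mouse far from the rest on the log2 scale, where chance alone flags about 1 set in 20. No member was among them. Pla2g5, a secreted phospholipase, was 20.3 CPM in WT replicate 6, against 32.8 to 39.3 CPM in the other WT mice. Pla2g10 was 63.9 CPM in CKO replicate 4, against 38.5 to 46.5 CPM in the other CKO mice. Hpgds was 3.02 CPM in WT replicate 1, against 7.50 to 12.4 CPM in the other WT mice. In the same mouse Cysltr1, a cysteinyl leukotriene receptor gene, was 1.73 CPM, against 5.45 to 10.2 CPM. Ltb4r2 was 0.617 CPM in CKO replicate 6, against 0.887 to 1.03 CPM in the other CKO mice.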

How the results depend on the processing

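The number of genes called over the whole table was 8, and moved to 52 with DESeq2's size factors, 275 with library size only, 53 with robust quasi-likelihood, 49 with limma voom, 403 with limma-trend on log2(TPM + 1), 1514 with DESeq2's Wald test and 0 with the exact permutation of each gene. It was 2 to 1272 with 1 library left out, and 1911 without both replicates numbered 4. Members called were 0, where 0.0556% of all tested genes were called. DESeq2's Wald test called 2 members (Ptgs2 and Ptges), where 9.88% of its genes were called. Limma-trend called 1 (Ptges), where 2.8% of all genes were called. With 1 library left out 0 to 3 members were called. Without both replicates numbered 4 there were 4 (Ptgs2, Ptges, Hpgd and Ptger4), where 13.3% of all genes were called. The 3 were Ptgs2, Ptges and Hpgd, without CKO replicate 4, where 8.8% of all genes were called. Without WT replicate 4, where 6.96% of all genes were called, they were Ptgs2 and Ptges. Members at an unadjusted p under 0.05 numbered 5, where 22.6% of all tested genes were under it. They numbered 4 to 6 in the other settings, for which that share was not computed. Same-numbered mice did not deviate together (correlations of -0.496 to 0.0776), so the numbers were not taken as pairs; with the replicate number as a block 1 gene and 0 members were called, and no CKO mouse correlated best with its own number. Directions held in all 24 other settings for Ptgs1, Ptgs2, Ptges, Hpgd, Ptger2 and Ptger4. Without 1 library the log2 fold change of Ptgis ran from -0.21 to 0.36, that of Tbxas1 from -0.10 to 0.32 (0.38 without both replicates numbered 4) and that of Ptger3 from -0.12 to 0.28. For Ptgs2 it ran from 1.66 to 2.53 and for Ptges from 1.43 to 2.28, with edgeR adjusted p values of 0.0290 to 0.152 and 0.0146 to 0.138. Depth limits Ptgds, Ptgdr and Ptgdr2, which could not be tested.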

Other observations

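Some of the marker lists are given here beside the members. Mast cell markers, beside Hpgds, summed to 43.0 to 72.8 CPM in the CKO mice and 52.7 to 79.0 CPM in the WT mice, and 5 of 10 had too few counts to be tested. Platelet and megakaryocyte markers, beside Tbxas1, summed to 8.64 to 31.0 CPM and 6.47 to 11.2 CPM (CKO and WT), with both values near 31 CPM in CKO replicates 2 and 3. Mesothelial markers summed to 8.15 to 49.2 CPM in the CKO mice, highest in replicate 2, where Ptgis was also highest. In the WT mice they summed to 4.44 to 31.1 CPM, highest in replicate 5, which had the highest WT level of Ptgis. CKO replicate 2 was also highest for the fibroblast, endothelial, monocyte and macrophage, and enteric neuron and glia lists. WT replicate 5 was also the highest WT mouse for the smooth muscle and mast cell lists. Summed levels were 1951 to 3146 and 1977 to 4422 CPM for smooth muscle, 66.0 to 151 and 44.8 to 81.6 CPM for enteric neurons and glia, and 41.5 to 207 and 55.4 to 131 CPM for adipocytes (CKO and WT). Exocrine pancreas markers summed to 36.2 to 1486 CPM in the CKO mice and 77.4 to 22130 CPM in the WT mice, the highest in WT replicate 6. The part of these cells in the members' values was not tested.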
